A study of Mus musculus with 9 samples.

Results

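The claudin genes Cldn1, Cldn2, Cldn3, Cldn4, Cldn6, Cldn7, Cldn8, Cldn12, Cldn15 and Cldn23 were followed in a mouse intestinal epithelial cell line exposed to bacterial lipopolysaccharide (LPS). These 10 genes were taken by name, from among 18193 genes with a probe set of their own on the array, and all 10 were represented, by 18 probe sets in all. A gene was tested where 3 or more of the 9 arrays gave it a signal of at least log2 4, a minimum that 9431 genes met. Of the 10 claudins 4 met it, Cldn1, Cldn2, Cldn4 and Cldn12. The other 6 lay below log2 4 on every array.

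The cells were m-ICcl2, a line from fetal small intestine of C57BL/6 mice that carries the SV40 large T antigen as a transgene, so every group shares that immortalising oncogene. Total RNA of 3 groups was hybridised to Affymetrix mouse arrays, with 3 arrays a group. The first group was unstimulated. The second received 100 ng/mL LPS for 6 h. The third received 100 ng/mL LPS for 6 h, followed by 90 h free of LPS, which the study uses to make cells tolerant to LPS, and is called tolerant here. The labels give no time in culture for the unstimulated cells, so the added 90 h and the earlier LPS cannot be told apart. The arrays are labelled as biological replicates 1, 2 and 3 within each group, all from 1 cell line, so the spread is that between cultures of that line.

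Claudins are membrane proteins with 4 spans that polymerise into the strands of the tight junction, the seal between neighbouring epithelial cells. Their extracellular loops set how tight the space between cells is and which ions pass. Sealing claudins such as Cldn1, Cldn3, Cldn4, Cldn6 and Cldn8 close that space. Cldn2 and Cldn15 line channels for small cations and water and give the small intestine its leaky epithelium. For Cldn7, Cldn12 and Cldn23 reported roles differ with the cell type, and they are kept apart below as claudins without a settled role.

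The labelled cell type was set against its markers. Of 10 epithelial marker genes 7 passed the minimum, with Krt8, an epithelial keratin, at log2 12.72 to 13.51. The adherens junction cadherin Cdh1 lay at log2 2.74 to 2.81, and Krt19 and Muc1 were also below log2 4 on all 9 arrays. Of 10 mesenchymal markers 4 passed, among them the intermediate filament gene Vim at log2 13.23 to 13.51. Of 9 leukocyte markers only Csf1r passed, and Ptprc, the pan-leukocyte marker, was below the minimum on all arrays. Of 8 endothelial markers 1 passed, and of 8 markers of Paneth, goblet, tuft and enteroendocrine cells none did. Arrays of replicate 1 differed from the others in every group, and the 3' minus 5' signal of the actin control probes was log2 0.40 to 0.72 on them and 1.02 to 1.38 on replicates 2 and 3. Claudin calls that differ in a fit with the replicate number as an added term (the replicate block) or on replicates 2 and 3 alone are therefore given beside the main ones, and for other gene lists the counts that either moves by over 1.5 times.

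The bases upstream of Cldn4, Cldn1 and Cldn2 are shown because Cldn4 and Cldn1 rose in tolerant cells, while Cldn2 did not pass the test. Each is the 250 bases before the annotated RefSeq start in build GRCm38.p6, 5' to 3' on the gene's strand. Capitals mark matches to the AP-1 motif TGANTCA, the Snail and Zeb E-box CACCTG, the TATA box TATAAA or the NF-kappa-B motif (GGGNN followed directly by TTTCC), searched on both strands. Cldn4 lies at chr5:134946935-134947184 (minus strand), Cldn1 at chr16:26371840-26372089 (minus strand) and Cldn2 at chrX:139800558-139800807 (plus strand).
Cldn4: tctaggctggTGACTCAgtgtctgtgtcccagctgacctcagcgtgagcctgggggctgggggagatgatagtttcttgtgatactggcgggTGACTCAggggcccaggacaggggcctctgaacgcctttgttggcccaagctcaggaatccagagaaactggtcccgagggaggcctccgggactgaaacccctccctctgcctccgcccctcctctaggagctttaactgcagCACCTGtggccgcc
Cldn1: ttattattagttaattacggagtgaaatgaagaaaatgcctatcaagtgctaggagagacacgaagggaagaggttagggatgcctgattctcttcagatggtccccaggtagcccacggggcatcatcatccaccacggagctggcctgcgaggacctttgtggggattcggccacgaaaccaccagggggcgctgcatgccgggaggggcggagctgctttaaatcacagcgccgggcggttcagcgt
Cldn2: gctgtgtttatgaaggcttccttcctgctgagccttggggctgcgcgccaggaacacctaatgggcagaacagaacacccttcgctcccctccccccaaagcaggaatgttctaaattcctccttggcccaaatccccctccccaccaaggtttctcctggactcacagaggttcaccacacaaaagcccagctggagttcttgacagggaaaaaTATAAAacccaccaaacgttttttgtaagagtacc
The Cldn4 stretch holds 2 matches to the AP-1 motif, both spelled TGACTCA, at 240 to 234 and 158 to 152 bases before the start. At least 1 such match occurs in 6.75% and at least 2 in 0.34% of the 32851 mouse promoters of this length. The Cldn4 stretch also holds 1 E-box, 14 to 9 bases before the start, a motif in 17.22% of promoters. The Cldn1 stretch holds no match to the 4 motifs in capitals and has 2 matches to the Sp motif GGGCGG, which 32.74% of promoters hold at least once and 16.73% at least 2 times. The Cldn4 stretch has 1 Sp match, 44 to 39 bases before the start. The Cldn2 stretch has a TATA box 35 to 30 bases before the start. That motif occurs anywhere in the 250 bases, on either strand, in 12.37% of promoters. It also has 2 matches to the Cdx motif TTTATN, 1 of which covers the TATA box on the opposite strand. At least 1 Cdx match occurs in 37.19% and at least 2 in 14.22% of promoters. The Hnf1 partial site GTTAAT (6.43% of promoters) matched once in the Cldn1 stretch, and the Grhl core CCGGTT (5.62%) and the NF-kappa-B motif (1.41%) matched in none of the 3. These are letter matches only, and no binding was measured. Of the 10 claudins 8 had a promoter in the table used, and those not in it are Cldn8 and Cldn23.

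Cldn4, a sealing claudin that limits the passage of sodium, changed most among the claudins tested, being 10.03-fold higher in tolerant than in unstimulated cells. Its log2 signal in replicates 1, 2 and 3 was 5.96, 5.49 and 4.93 in unstimulated cells, 5.52, 4.62 and 4.62 after 6 h LPS and 9.40, 8.57 and 8.38 in tolerant cells. The tolerant arrays lay above all other arrays, whereas the unstimulated and 6 h arrays overlapped. Group means were log2 5.46 ± 0.52, 4.92 ± 0.52 and 8.78 ± 0.55 (SD, n = 3 each). The rise from unstimulated to tolerant was log2 3.33 (SE 0.38, limma adjusted p = 0.000592), with replicate pairs at 3.45, 3.08 and 3.46. By size of rise it was rank 20 of the 9431 genes tested. From 6 h LPS to tolerant the difference was log2 3.86 (SE 0.38), or 14.5-fold, with an adjusted p of 0.000389 in limma and rank 8 by size of rise. The size of both rises depends on low signals. With a pseudocount of 16 added to the linear values they were log2 2.92 over unstimulated and 3.29 over 6 h LPS cells.

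After 6 h of LPS itself Cldn4 differed from unstimulated cells by log2 -0.54 (SE 0.38, limma adjusted p = 0.418), which did not pass the test. All 3 same-numbered pairs were lower at 6 h. With the replicate number as a block the same difference passed, at an adjusted p of 0.0372 (95% interval -0.86 to -0.21), in a fit that called 24% of all genes, 12.5% as lower. Replicate 1 was the highest array of its group for Cldn4 in every group, and on replicates 2 and 3 alone the rise to tolerant was 9.63-fold (limma adjusted p = 0.000658), in a fit that called 38.3% of all genes. In bulk RNA, fewer cells that express a gene and less of its RNA per cell cannot be told apart.

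Cldn1, a sealing claudin needed for the barrier of the skin and found along the lateral membrane of intestinal cells, was 2.21-fold higher in tolerant than in unstimulated cells. Its log2 signal in replicates 1, 2 and 3 was 8.98, 8.67 and 8.66 in unstimulated cells, 8.81, 9.33 and 9.10 after 6 h LPS and 9.96, 9.84 and 9.96 in tolerant cells. The tolerant arrays were again the highest, and the unstimulated and 6 h arrays overlapped. Group means were log2 8.77 ± 0.18, 9.08 ± 0.26 and 9.92 ± 0.07 (SD, n = 3 each). The rise over unstimulated cells was log2 1.15 (SE 0.18, limma adjusted p = 0.0026), which placed Cldn1 at rank 726 of 9431 by size of rise. At 6 h the difference was log2 0.31 (SE 0.18, limma adjusted p = 0.333), with 2 of 3 same-numbered pairs higher.

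Tolerant cells also exceeded 6 h LPS cells in Cldn1, by log2 0.83 (SE 0.18, limma adjusted p = 0.0166), or 1.78-fold. That call was lost when tolerant replicate 1, 2 or 3 was left out (limma adjusted p = 0.0548, 0.0522 and 0.0637), and when all probe sets of the gene were averaged (log2 0.44, limma adjusted p = 0.186). Cldn1 has 4 probe sets, of which 2 stayed at log2 2.19 to 2.42 throughout and enter that average. The other probe set above the minimum read log2 5.72, 4.18 and 4.31 in unstimulated cells, 6.97, 5.20 and 4.38 at 6 h and 7.34, 6.06 and 5.84 in tolerant cells. All tolerant arrays of this probe set were above all unstimulated ones, with replicate 1 highest in each group. Its mean rise from unstimulated to tolerant, log2 1.68 (SE 0.70), did not pass in limma over all probe sets (adjusted p = 0.121) and passed with the replicate block (adjusted p = 0.0013). Against 6 h LPS this probe set was higher by log2 0.90 (SE 0.70). That did not pass in limma (adjusted p = 0.499) and passed with the replicate block (adjusted p = 0.0255). Its 6 h replicate 1 lay above tolerant replicates 2 and 3.

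The other sealing claudins lay below the level minimum. Cldn3, a claudin of most gut epithelium, has 4 probe sets, and Cldn6, a claudin of early embryonic epithelium, and Cldn8, a claudin of distal colon and kidney tubule, have 1 each. All lay under log2 4 on all 9 arrays. Over the 6 genes below the minimum and their 9 probe sets, signals ran from log2 1.76 to 2.71, and no probe set ranged over more than log2 0.048 between arrays. In the RefSeq annotation Cldn4 lies between Cldn13 and Cldn3 on chromosome 5, with no further claudin gene between them. Cldn13 lay at log2 2.40 to 2.42 and Cldn3 at 2.66 to 2.71 in all groups, so neither neighbour reached the minimum where Cldn4 rose.

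**Figure D1:**
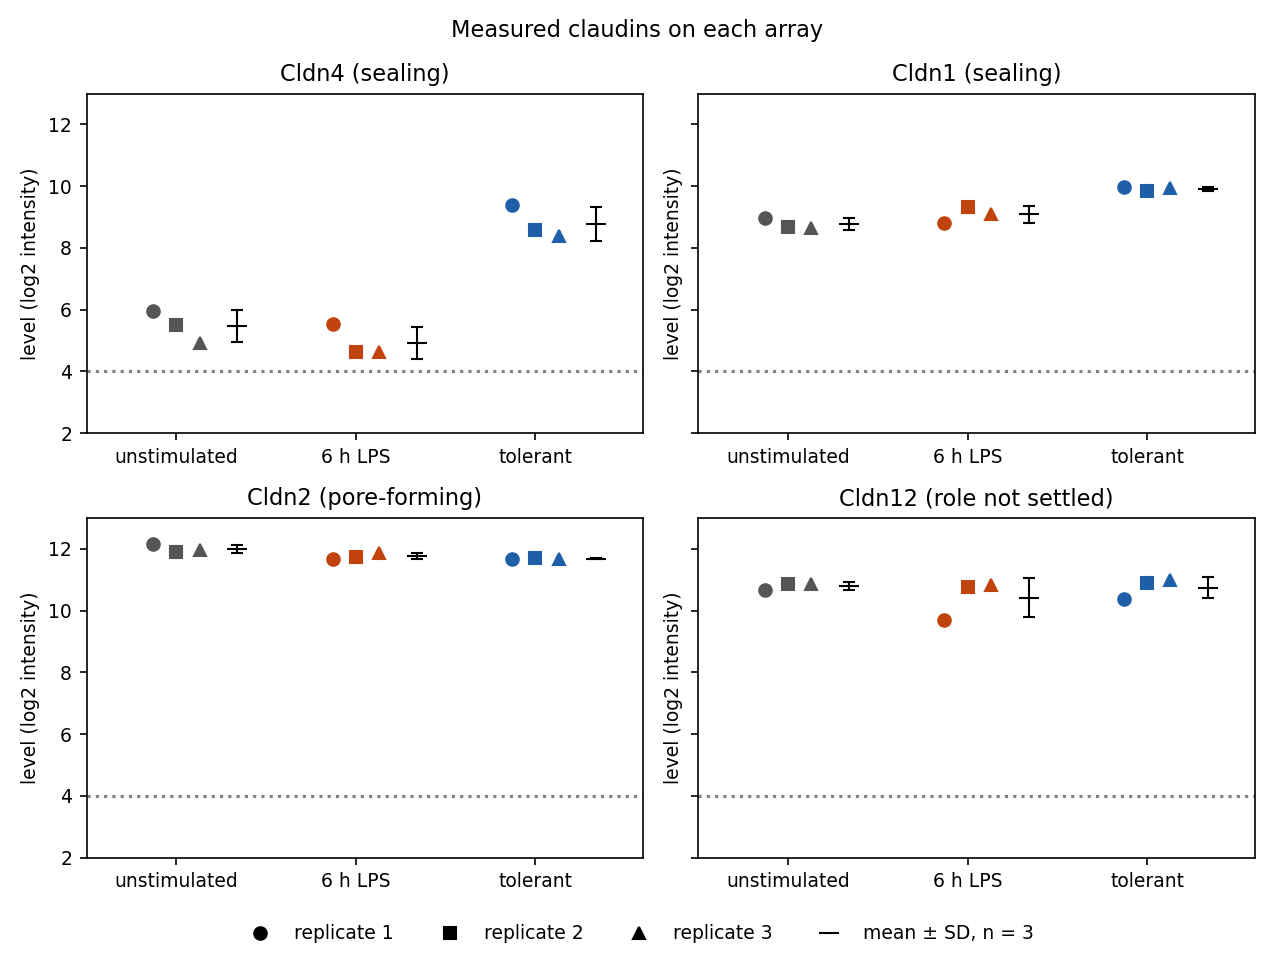
Log2 intensity of the 4 claudins above the level minimum (dotted line at log2 4) on each array, by group, with a symbol for each replicate and bars for the mean ± SD (n = 3). The tolerant arrays of Cldn4 (8.38 to 9.40) and Cldn1 (9.84 to 9.96) sit above all others of their gene, while Cldn2 stays between 11.67 and 12.15.

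Cldn2, which forms the channel for sodium and water between intestinal cells, did not pass the test in any comparison. Its log2 signal in replicates 1, 2 and 3 was 12.15, 11.90 and 11.95 in unstimulated cells, 11.68, 11.74 and 11.88 after 6 h LPS and 11.67, 11.69 and 11.68 in tolerant cells. Every array of both LPS groups was below every unstimulated array, by a small margin, and the 6 h and tolerant arrays overlapped. Group means were log2 12.00 ± 0.13, 11.76 ± 0.10 and 11.68 ± 0.01 (SD, n = 3 each). The difference of tolerant from unstimulated cells was log2 -0.32 (SE 0.14, 95% interval -0.64 to 0.0048, limma adjusted p = 0.133). At 6 h it was log2 -0.24 (SE 0.14, 95% interval -0.56 to 0.086, limma adjusted p = 0.351). These intervals bound the difference in Cldn2 and do not show that it held level.

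The second Cldn2 probe set gave nearly the same differences, log2 -0.28 at 6 h and -0.35 in tolerant cells, both against unstimulated. Tolerant against unstimulated Cldn2 was called lower in limma when the probe sets were averaged (log2 -0.34, adjusted p = 0.0385) and when no level minimum was applied (adjusted p = 0.0437). The replicate block did not call it (adjusted p = 0.069). Between 6 h LPS and tolerant cells Cldn2 differed by log2 -0.08 (95% interval -0.40 to 0.24, limma adjusted p = 0.778). Cldn15, the other channel-forming claudin of the small intestine, was below log2 4 on all arrays.

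Cldn12, which lacks the PDZ-binding end by which most claudins attach to scaffolds, did not pass in any comparison. Its log2 signal in replicates 1, 2 and 3 was 10.67, 10.86 and 10.87 in unstimulated cells, 9.69, 10.76 and 10.82 after 6 h LPS and 10.36, 10.88 and 10.99 in tolerant cells. Replicate 1 was the lowest array of each group, and all groups overlapped. The differences were log2 -0.38 at 6 h (limma adjusted p = 0.493) and log2 -0.06 in tolerant cells (limma adjusted p = 0.917), each against unstimulated cells. Tolerant against 6 h LPS gave log2 0.32 (limma adjusted p = 0.573). A second Cldn12 probe set gave log2 -0.11, 0.13 and 0.24 for the same comparisons, so that the sign of the tolerant minus unstimulated difference depended on the probe set. Cldn7, a basolateral claudin of gut epithelium, and Cldn23, a claudin of surface enterocytes, each lay below log2 4 on all arrays.

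**Figure D2:**
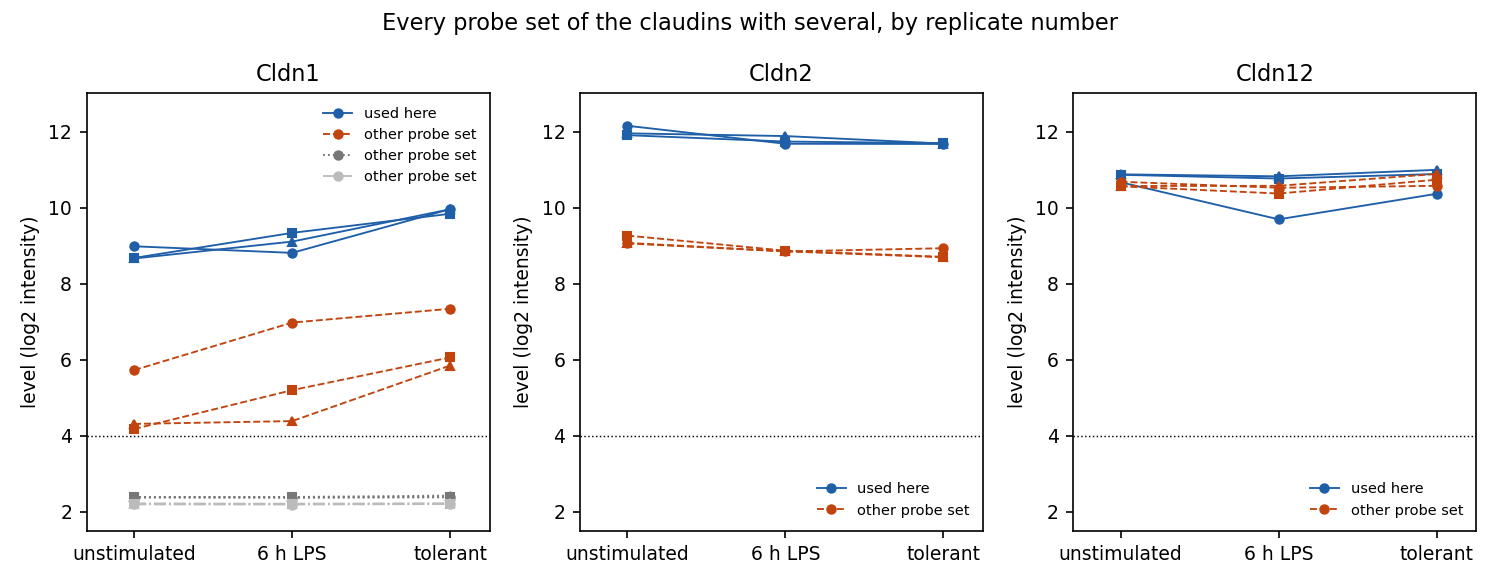
Log2 intensity of every probe set of Cldn1, Cldn2 and Cldn12 in the 3 groups, with lines joining arrays of the same replicate number and a dotted line at the level minimum of log2 4. Both Cldn1 probe sets above the minimum are highest on average in tolerant cells, its other 2 stay at 2.19 to 2.42, and both Cldn2 probe sets are highest in unstimulated cells.

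Counted over the 4 claudins tested, none passed at 6 h LPS against unstimulated in limma, and none had an unadjusted p under 0.05. Over all genes tested 0.0636% were called and 22.9% had an unadjusted p under 0.05. With the replicate block 1 of 4, Cldn4, was called lower. In tolerant against unstimulated cells 2 of 4 were called, both higher, where 26.2% of all genes tested were called, 14% as higher and 12.2% as lower. In tolerant against 6 h LPS cells 2 of 4 were called, both higher, where 13.1% of all genes were called, 7.1% as higher and 6.02% as lower. Arrays of the groups did not overlap for 1 of 4 claudins at 6 h, 3 of 4 in tolerant against unstimulated and 2 of 4 in tolerant against 6 h LPS. Over all genes those shares were 26.1%, 47.1% and 31.3%. The comparisons share arrays, since the unstimulated, 6 h and tolerant arrays each enter more than 1 of them. With 4 genes tested these counts describe the claudins and were not tested as a group.

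Of the claudins tested, both sealing ones rose in tolerant cells and the channel former did not pass the test. Of 5 sealing claudins 2 were tested, Cldn1 and Cldn4, and their median log2 change from unstimulated was 2.24 in tolerant cells and -0.11 at 6 h. Of the 2 channel-forming claudins only Cldn2 was tested, at log2 -0.32 and -0.24 in the same comparisons. The median over all genes tested was log2 -0.07 in tolerant cells and -0.11 at 6 h. Sealing minus channel-forming change was thus log2 2.55 in tolerant cells and 0.12 at 6 h, both against unstimulated, and 2.43 in tolerant against 6 h LPS. With no level minimum the 3 sealing claudins and 1 channel former near the floor enter, and the first and last values become 0.17 and 0.039. The contrast therefore rests on Cldn4 and Cldn1 against Cldn2 and was given no test, and signals of different probe sets are not set against each other here.

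**Figure D3:**
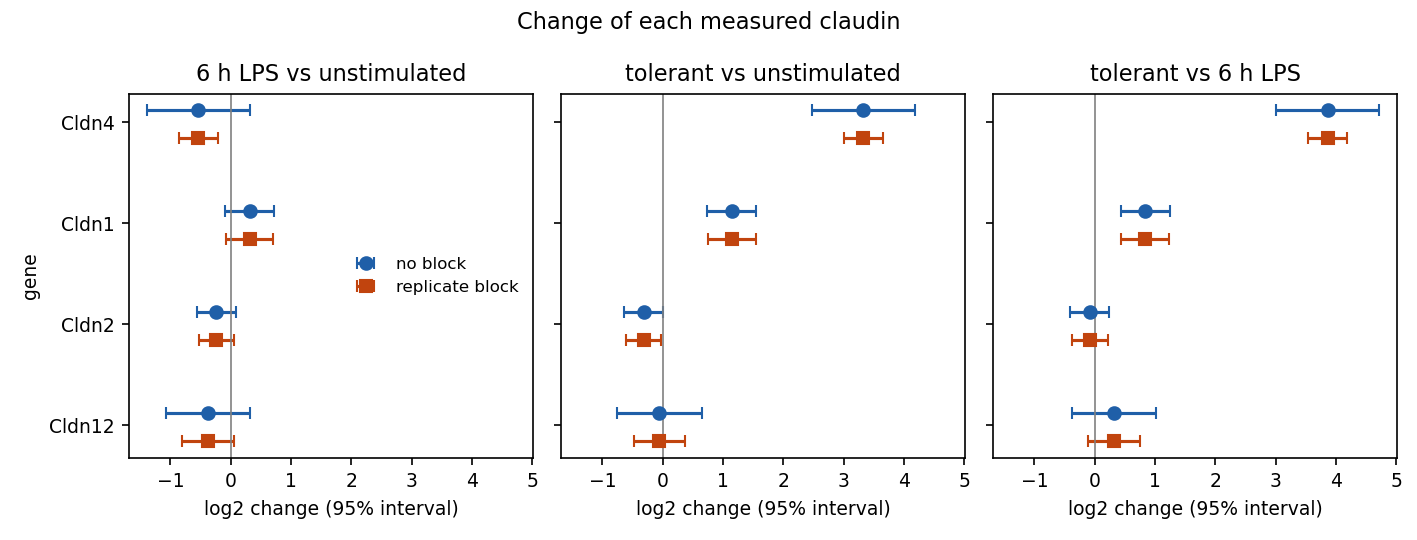
Log2 change of Cldn4, Cldn1, Cldn2 and Cldn12 in each comparison, with 95% intervals, from the fit without a block (circles) and with the replicate number as a block (squares). The Cldn4 change of 3.33 in tolerant against unstimulated cells and the Cldn1 change of 1.15 have intervals above 0 in both fits, and the Cldn12 intervals span 0.

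A further claudin outside the 10, Cldn9, was named after its values were seen, as the only 1 of the 14 other claudin genes on the array to pass the minimum. Its log2 signal in replicates 1, 2 and 3 was 7.59, 6.86 and 6.70 in unstimulated cells, 6.20, 5.49 and 6.17 after 6 h LPS and 8.0, 7.65 and 7.46 in tolerant cells. All 6 h arrays lay below all others. Tolerant exceeded 6 h LPS cells by log2 1.75, or 3.37-fold (limma adjusted p = 0.00514). The 6 h difference from unstimulated, log2 -1.10, did not pass in limma (adjusted p = 0.115) and passed with the replicate block (adjusted p = 0.0319). Tolerant against unstimulated Cldn9 differed by log2 0.66 (limma adjusted p = 0.129), past the threshold with the block (adjusted p = 0.0243), on replicates 2 and 3 alone (limma adjusted p = 0.0435) and without unstimulated replicate 1 (limma adjusted p = 0.0459). A second Cldn9 probe set gave log2 -0.56 at 6 h and 0.95 in tolerant against 6 h LPS, neither past the threshold in limma over all probe sets (adjusted p = 0.316 and 0.0925). With the replicate block the latter passed (adjusted p = 0.0093) and the former did not (adjusted p = 0.0678). This probe set lay under log2 4 on 6 of the 9 arrays, among them every 6 h array (3.62, 2.82 and 3.51). The size of its differences therefore has no firm base. The remaining 13 claudin genes stayed at log2 1.76 to 3.03.

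Claudin strands are anchored by scaffold proteins and sit beside other junction proteins, and 28 such genes were listed, of which 25 were on the array and 21 were tested. In tolerant against unstimulated cells 4 were called higher and 2 lower in limma, with a median log2 change of 0.23. The 6 of 21 called stand beside 26.2% of all genes called in this comparison, so the share is near that of the array as a whole. Tjp1, which encodes the scaffold ZO-1 that binds claudin tails, rose 2.81-fold, from log2 9.31, 9.50 and 9.65 to 10.94, 11.06 and 10.93 (limma adjusted p = 0.000923). Ocln, the junction protein occludin, rose 1.89-fold, from log2 4.72, 4.79 and 4.63 to 5.65, 5.84 and 5.40 (limma adjusted p = 0.00472). For both genes the tolerant arrays lay above all unstimulated and 6 h arrays. Over all genes tested, 47.1% did not overlap between tolerant and unstimulated arrays and 31.3% between tolerant and 6 h arrays.

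Cxadr, a junction adhesion molecule and virus receptor, rose 2.12-fold, and Magi3, a multi-PDZ scaffold, 1.91-fold. The size of these rises depended on the processing. Over 13 alternatives the rise ran from log2 0.65 to 1.12 for Cxadr, 0.72 to 0.95 for Magi3 and 0.63 to 0.92 for Ocln. Each stayed called in all 13. Ildr2, a member of the angulin family of tricellular junctions, fell 4.24-fold, from log2 6.60, 6.46 and 6.44 to 3.78, 4.46 and 5.0 with 1 tolerant array under the minimum. With its probe sets averaged the Ildr2 difference was smaller, log2 -1.17 against both unstimulated and 6 h LPS cells. Pard3, a polarity scaffold, fell 1.97-fold. Against 6 h LPS cells Ocln (2.06-fold) and Tjp1 (1.85-fold) were higher and Ildr2 (4.49-fold) and Pard3 (1.54-fold) lower. In that comparison the Tjp1 call was lost without tolerant replicate 2 or 3 (limma adjusted p = 0.0631 and 0.0507). The Pard3 call there was lost without unstimulated replicate 3 or any single 6 h or tolerant array (limma adjusted p from 0.0514 to 0.122). With its probe sets averaged, Pard3 was not called against unstimulated cells either (log2 -0.44, limma adjusted p = 0.154). At 6 h LPS none of the 21 was called in limma and 6 had an unadjusted p under 0.05, while the replicate block called 4 higher and 2 lower. Over all genes 22.9% had an unadjusted p under 0.05 and the block called 24%, so these shares too are near those of the array. With the block, which called 48.6% of all genes, 8 of 21 were higher and 2 lower in tolerant against unstimulated cells.

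Of 11 membrane proteins on the array that bind, process or regulate claudins, 7 were tested. In tolerant against unstimulated cells 2 were called higher, Epcam and Cd9, where 26.2% of all genes were called. The Epcam call was fixed by the level minimum, so these 7 genes give no fair share to set beside that one. Epcam, which binds and stabilises claudins at the lateral membrane, lay under log2 4 on all unstimulated and 6 h arrays. It read log2 5.31, 6.07 and 5.53 on the tolerant arrays, at least 3.11-fold higher than in unstimulated cells. Epcam passed the minimum only through the tolerant arrays, so it had to differ and its test adds nothing. The tetraspanin Cd9, a claudin-binding membrane organiser, rose 3.48-fold, from log2 10.58, 10.71 and 10.28 to 12.59, 12.38 and 11.98 (limma adjusted p = 0.000577). Against 6 h LPS, Epcam (at least 3.11-fold), Cd9 (2.99-fold), the protease inhibitor gene Spint1 (2.64-fold) and the ephrin gene Efna1 (1.97-fold) were called higher. The Spint1 call was lost without 6 h LPS replicate 2 or 3 or any single tolerant array (limma adjusted p from 0.0596 to 0.0895). St14 and Prss8, membrane-anchored proteases of epithelia, were below the minimum on all arrays, as were Ephb1 and Lnx1. In tolerant against unstimulated cells the replicate block called 5 of 7 higher and 1 lower, in a fit that called 48.6% of all genes. The fit on replicates 2 and 3 called 5 higher, where 38.3% of all genes were called. Epcam is among the 5 in both fits.

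**Figure D4:**
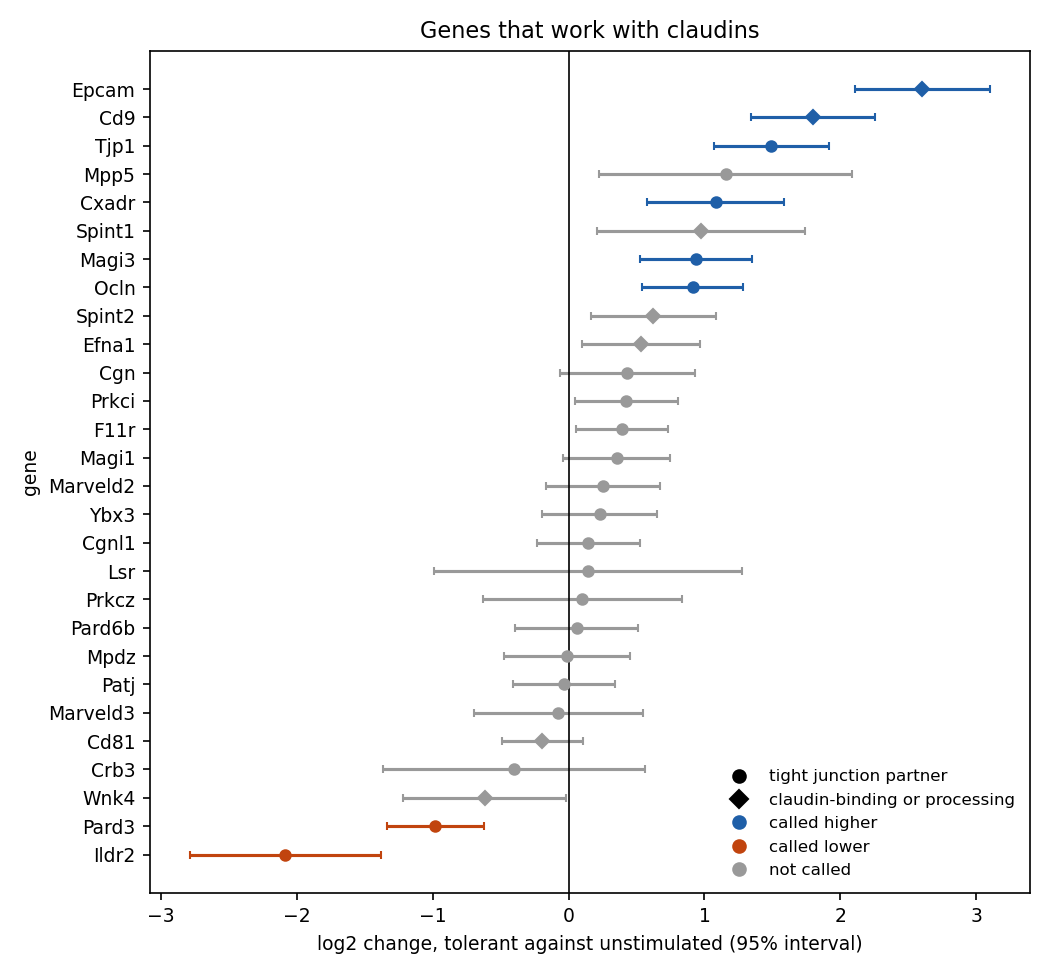
Log2 change with 95% interval in tolerant against unstimulated cells for the 21 junction partners (circles) and the 7 claudin-binding or processing genes (diamonds) tested, coloured by call. Epcam, Cd9, Tjp1, Cxadr, Magi3 and Ocln were called higher and Pard3 and Ildr2 lower; the Epcam point is taken against unstimulated arrays that lie under log2 4, so its size has no firm base.

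Transcription factors tied to claudin genes by the literature were listed as a further group, of which 21 were on the array and 7 were tested. In tolerant against unstimulated cells Klf5 (4.45-fold), Klf4 (2.30-fold) and Zeb1 (1.85-fold) rose, and Hnf4a fell 3.49-fold, 4 of 7 called beside 26.2% of all genes. Klf4 and Klf5 are factors of intestinal differentiation and proliferation, Zeb1 is a repressor of epithelial genes and Hnf4a drives enterocyte genes. Klf4 read log2 7.94, 7.96 and 8.14 in unstimulated and 9.17, 9.23 and 9.24 in tolerant cells, and Hnf4a 10.11, 9.29 and 9.46 against 8.19, 7.73 and 7.53. Neither gene overlapped between those groups, as was so for 47.1% of all genes tested. The Klf5 and Zeb1 calls were lost without unstimulated replicate 2 or 3 or any single tolerant array (limma adjusted p from 0.053 to 0.099 for Klf5 and from 0.0682 to 0.115 for Zeb1). Against 6 h LPS, Klf4 (2.29-fold) and the vitamin D receptor gene Vdr (1.67-fold) were higher and Hnf4a (2.09-fold) lower. That Vdr call was lost on replicates 2 and 3 alone (limma adjusted p = 0.0666) and without 6 h LPS replicate 1 or 2 or any single tolerant array (limma adjusted p from 0.0517 to 0.0909). The Hnf4a call against 6 h LPS was lost without 6 h LPS replicate 1 or 3 or tolerant replicate 2 or 3 (limma adjusted p from 0.0628 to 0.0977). The intestinal factors Cdx1 and Cdx2 and the repressors Snai1 and Snai2 were among 14 factors below the minimum on all arrays. With the replicate block 5 of 7 were higher and 1 lower in tolerant against unstimulated cells, in a fit that called 48.6% of all genes. The block also called 1 lower at 6 h, where it called 24% of all genes.

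Some cell type markers were also called in tolerant against unstimulated cells, where 26.2% of all genes were called. Of those tested, these were 4 of 7 epithelial markers, 1 of 4 mesenchymal markers and the 1 leukocyte marker. The mesenchymal share is near that of the array, and the epithelial share includes Epcam, whose call was fixed by the level minimum. The summed linear signal of the 10 epithelial markers was 19172 to 22486 on unstimulated arrays, 17790 to 23790 at 6 h and 25370 to 29861 on tolerant arrays. Most of that sum came from Krt8, Krt18 and Krt20, so it says little of the other markers. Cdh17, the intestinal liver-intestine cadherin, rose 4.13-fold in tolerant against unstimulated cells (limma adjusted p = 0.0038), and Krt20 (1.69-fold) and Krt18 (1.58-fold) were called higher. Krt8 (log2 -0.10), Vil1 (log2 -0.18) and Lgals4 (log2 0.15) were not called. The seventh epithelial marker tested, Epcam, is also in the list of claudin-binding genes and met the minimum only through the tolerant arrays. Against 6 h LPS cells, Cdh17 (3.73-fold) and Krt18 (2.07-fold) were called higher besides Epcam. At 6 h the replicate block called Krt18 and Vil1 lower, in a fit that called 24% of all genes, 12.5% as lower. The 10 mesenchymal markers, mostly Vim by signal, summed to 12994 to 13754 on unstimulated and 11265 to 12336 on tolerant arrays. In tolerant against unstimulated cells the matrix gene Fn1 was 1.94-fold lower. Vim (log2 -0.08), Cdh2 (log2 -0.20) and S100a4 (log2 0.38) were not called there. Against 6 h LPS cells Fn1 was 1.77-fold lower. That call was lost without unstimulated replicate 2 or 3, 6 h LPS replicate 1 or 3 or tolerant replicate 2 or 3 (limma adjusted p from 0.0511 to 0.14). In the same comparison the replicate block called 1 mesenchymal marker higher and 2 lower, in a fit that called 2985 of 9431 genes. The 9 leukocyte markers summed to 1137 to 2409 on unstimulated and 293 to 672 on tolerant arrays through Csf1r, which fell 3.85-fold, while the other 8 were below the minimum on all arrays. The Csf1r call was lost without unstimulated replicate 2 or 3 or tolerant replicate 1 (limma adjusted p = 0.0815, 0.0714 and 0.0638). With the replicate block Csf1r was lower at 6 h and in tolerant against 6 h LPS cells too. Those fits called 24% of all genes and 2985 of 9431 genes. On replicates 2 and 3 alone Csf1r and 2 mesenchymal markers were called lower in tolerant against 6 h LPS cells. That fit called 2126 of 9431 genes. On the same arrays the 1 endothelial marker tested was called lower in tolerant against unstimulated cells, where 38.3% of all genes were called. Against unstimulated cells the calls of Krt20 and Fn1 were lost without tolerant replicate 2 or 3 (limma adjusted p from 0.0532 to 0.0593), and that of Krt18 without any single array but unstimulated replicate 1 and 6 h LPS replicate 1 (limma adjusted p from 0.0539 to 0.136). The part of these shifts in the claudin differences was not tested.

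As a description, the genes whose signal followed Cldn4 most closely over the 9 arrays were Ube2c, Hoxb2, Wnt7a, Rras2 and Rdh12, with Pearson r of 0.996, 0.995, 0.993, 0.991 and 0.990. For Cldn1 they were Epb41l2, Rassf6, Egfr, St3gal6 and Ubxn7, with r of 0.978, 0.976, 0.975, 0.975 and 0.973. All these arrays share the group differences and the offset of replicate 1, so the coefficients carry both.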

How the data were processed

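The authors deposited linear intensity values, 1 for each probe set on each array. Per the submitters' processing notes GCRMA produced them, in a version not stated there. GCRMA removes background estimated from each probe's sequence, so low values crowd near a floor and carry no order. Here the values were put on the log2 scale with no pseudocount. Of the 45101 probe sets, 34945 had 1 gene symbol in the platform annotation, 932 several and 9160 no listed gene, and 64 were controls. The probe set brightest on average stood for each gene. Genes reaching log2 4 on 3 or more arrays were tested in R 4.3.3 with limma 3.58.1, by a mean per group over all 9 arrays, and moderated two-sided tests were adjusted by Benjamini-Hochberg over 9431 genes (threshold 0.05). All probe sets were tested in the same way for the second probe sets. Precision is limited by there being 3 arrays a group.

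The claudins, gene lists, motifs and tests were chosen with earlier results of these data known. All 10 claudins are named, those above the minimum in full, with up to 4 called genes of each other list and comparison, and the 5 genes most correlated with each of the 2 claudins that changed most. Cldn9 meets this rule only in tolerant against 6 h LPS cells, and Magi3 and Ocln in tolerant against unstimulated cells fall outside it. Each of these genes was named after its values were seen. The steps were tested on simulated data. Over the comparisons 43 to 54 of 100 changes of 2-fold and 79 to 88 of 100 changes of 4-fold were recovered. Between 3.68% and 7.79% of calls were false. The simulated noise was drawn independently for each array, so it lacks an offset shared by the arrays of replicate 1. Alternatives covered the filter, the choice of probe set, normalization, a floor or pseudocount, eBayes settings, the replicate block and each array left out; the fit on replicates 2 and 3 is among them.

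Deviations from the group means correlated at 0.157 to 0.844 between arrays of the same replicate number, over 0.1 in every pair. Arrays of replicates 2 and 3 with different numbers correlated at 0.214 to 0.731, so shared numbers cannot be told apart from an offset of replicate 1.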

Additional observations from a re-analysis of the deposited data

How the results depend on the processing

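Cldn4 and Cldn1 stayed called higher in tolerant against unstimulated cells, and Cldn4 in tolerant against 6 h LPS cells, in all 13 alternatives and with each of 9 arrays left out. The number of claudins called lower in tolerant against unstimulated cells became 1 (Cldn2) with no filter on low values and with the mean of all probe sets. The number called higher in tolerant against 6 h LPS became 1 (Cldn4) with the mean of all probe sets, and ranged from 1 to 2 with 1 array left out. With the replicate block, 1 claudin (Cldn4) was called lower at 6 h. The sealing minus channel-forming change fell to 0.17 (tolerant against unstimulated) and 0.039 (tolerant against 6 h LPS) with no filter, since genes at the floor then enter, and the latter was 2.13 with a pseudocount of 16. At 6 h that contrast ran from -0.01 to 0.25 with 1 array left out.

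Over all genes, calls at 6 h rose from 6 to 2267 with the replicate block, 37 with no filter, 14 with the mean of probe sets and 696 without 6 h LPS replicate 3. Calls in tolerant against unstimulated cells went from 2470 to 4586 with the replicate block, and to 1515, 1400 and 1543 without unstimulated replicate 2, tolerant replicate 2 or tolerant replicate 3. With every probe set tested singly, 3863 of 16655 probe sets were called in that comparison, a count of probe sets and not of genes. Calls in tolerant against 6 h LPS cells went from 1238 to 2985 with the replicate block, 2126 on replicates 2 and 3, and 766, 677 and 704 without tolerant replicate 1, 2 or 3. Among the 10 claudins the block changed no other call than that of Cldn4 at 6 h. With no filter the calls of Klf5, Zeb1, Krt18 and Csf1r (tolerant against unstimulated) and of Spint1, Hnf4a and Fn1 (tolerant against 6 h LPS) were lost, at limma adjusted p from 0.0668 to 0.11. Further calls were lost with probe sets averaged (Pard3 in both tolerant comparisons, 0.154 and 0.396, and Hnf4a against 6 h LPS, 0.0914), with every probe set tested singly or robust eBayes (Krt18, 0.0556 and 0.0501), on replicates 2 and 3 (Vdr, 0.0666), and with only the 2 groups compared in the fit (Zeb1, Krt18, Pard3, Spint1, Vdr and Fn1, from 0.0504 to 0.0647). Signals under log2 4 give no order, so nothing is said of the 6 claudins there.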
